A study of Oryctolagus cuniculus with 24 samples.

Results

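Platelet-derived growth factors (PDGF) and vascular endothelial growth factors (VEGF) are secreted ligands that signal through related receptor tyrosine kinases. The 10 genes described here are the PDGF ligands PDGFA, PDGFB, PDGFC and PDGFD, the PDGF receptors PDGFRA and PDGFRB, the VEGF ligands VEGFA and VEGFC, and the VEGF receptors KDR and FLT1. They were taken by gene name from a count table of 23428 genes, in which all 10 were found. The RNA came from rabbit keratocytes, stromal cells of the cornea in primary culture, and made 24 libraries with 8 per condition. All cells were at passage 1 on glass coated with collagen, and all spent 6 days in culture. The TGF-β1 group, named the myofibroblast condition in the labels, received 5 ng/mL of transforming growth factor β1 in serum-free medium from day 1. The FBS group, the fibroblast condition, was switched on day 3 to DMEM with 10% fetal bovine serum. The serum-free group, the keratocyte condition, stayed in the defined serum-free medium throughout. Besides serum, the FBS arm thus had another base medium and a shorter exposure than the TGF-β1 arm. Separate animals or cultures are not stated for the replicates, and p-values therefore measure only the spread between these libraries, which may be technical.

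PDGF dimers act on the α receptor, encoded by PDGFRA, and the β receptor, encoded by PDGFRB, and drive proliferation and migration of stromal cells. The A and B chains are secreted in active form, whereas the C and D chains are latent until a protease removes their CUB domain. VEGF-A acts on endothelial cells mainly through VEGFR2, the product of KDR. FLT1 encodes VEGFR1, which binds VEGF-A tightly and can act as a decoy, and VEGF-C is best known as a ligand of the lymphatic receptor VEGFR3 and also binds VEGFR2 after processing. The cornea is normally free of vessels, and PDGF is a known growth and chemotactic factor for keratocytes.

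Total counts per library ran from 15410285 to 20911192 with TGF-β1, from 15659561 to 22528261 with FBS and from 17151397 to 21540864 in serum-free medium. The stromal proteoglycan gene KERA averaged 293 ± 46.2 counts scaled to library size (CPM) with TGF-β1, 237 ± 113 CPM with FBS and 8807 ± 1328 CPM in serum-free medium (mean ± SD, n = 8 here and below). ACTA2, α-smooth muscle actin, averaged 231 ± 125, 479 ± 221 and 2.92 ± 2.10 CPM in that order of conditions, and was lower with TGF-β1 than with FBS (-1.05 on the log2 scale, edgeR adjusted p = 0.0127). Of the 7 activation markers tested, however, 4 were higher and 2 lower with TGF-β1 than with FBS (36.9% and 36.4% of all genes). FN1, fibronectin, averaged 21157 ± 3768, 909 ± 219 and 5289 ± 1003 CPM. The columns number the libraries 5 to 12 in every condition. Numbers 5 to 8 (set 1, replicates 1 to 4) stood apart from numbers 9 to 12 (set 2, replicates 5 to 8) in each condition, on a principal component with 5.75% of the variance. The labels do not say what the sets are, so values of the 10 genes within each set are given wherever the difference between them passed its test. Within set 2 of the FBS condition, replicates 5 and 6 also lay away from replicates 7 and 8. Their squared differences over counting variance averaged 45 to 71.8 per gene, against 3.06 between replicates 7 and 8. From the FBS libraries of set 1, replicates 7 and 8 lay at 49 to 65.2 and replicates 5 and 6 at 106 to 164. Set 2 values with FBS thus average unlike pairs of libraries.

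With TGF-β1 the cells held more PDGFA, PDGFD, PDGFRB and VEGFA transcript than in serum-free medium, slightly more PDGFC, and less PDGFB, PDGFRA and KDR. A gene was called at an adjusted p under 0.05 in edgeR's quasi-likelihood test over the 13308 genes with enough counts, and 9 of the 10 genes were among them. FLT1 was not. Of these 9, 5 rose and 3 fell, where 31.2% of all genes tested rose and 33.1% fell. The median log2 fold change of the 9 was 0.15, against -0.03 over all genes. In 5 of them no TGF-β1 library overlapped a serum-free library, which held for 33.9% of all genes.

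With FBS, PDGFA, VEGFA and VEGFC rose against serum-free medium, and PDGFB, PDGFC, PDGFRA, PDGFRB and KDR fell. These are 3 higher and 5 lower of 9, where 39.5% and 40.5% of all genes were called higher and lower. The median of the 9 was -0.60, against -0.04 over all genes, and 7 had libraries that did not overlap (52.9% of all genes). Between the treatments, 6 were higher in TGF-β1 than in FBS libraries (36.9% of all genes) and 1, VEGFC, was lower (36.4%). The median of the 9 was 0.92, against 0.01 over all genes, and 6 did not overlap (46.2% of all genes). Most genes tested were called in each comparison, so a call alone does not set a PDGF or VEGF gene apart. Scaled by total count only, the calls of TGF-β1 against serum-free medium over all genes were 3215 higher and 5368 lower, in place of 4155 and 4408. Those of TGF-β1 against FBS were 3131 and 6819, in place of 4917 and 4840, and the medians of all genes moved to -0.173 and -0.388 in these comparisons. The comparisons with serum-free medium share its 8 libraries, and the sizes are therefore given gene by gene.

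**Figure D1:**
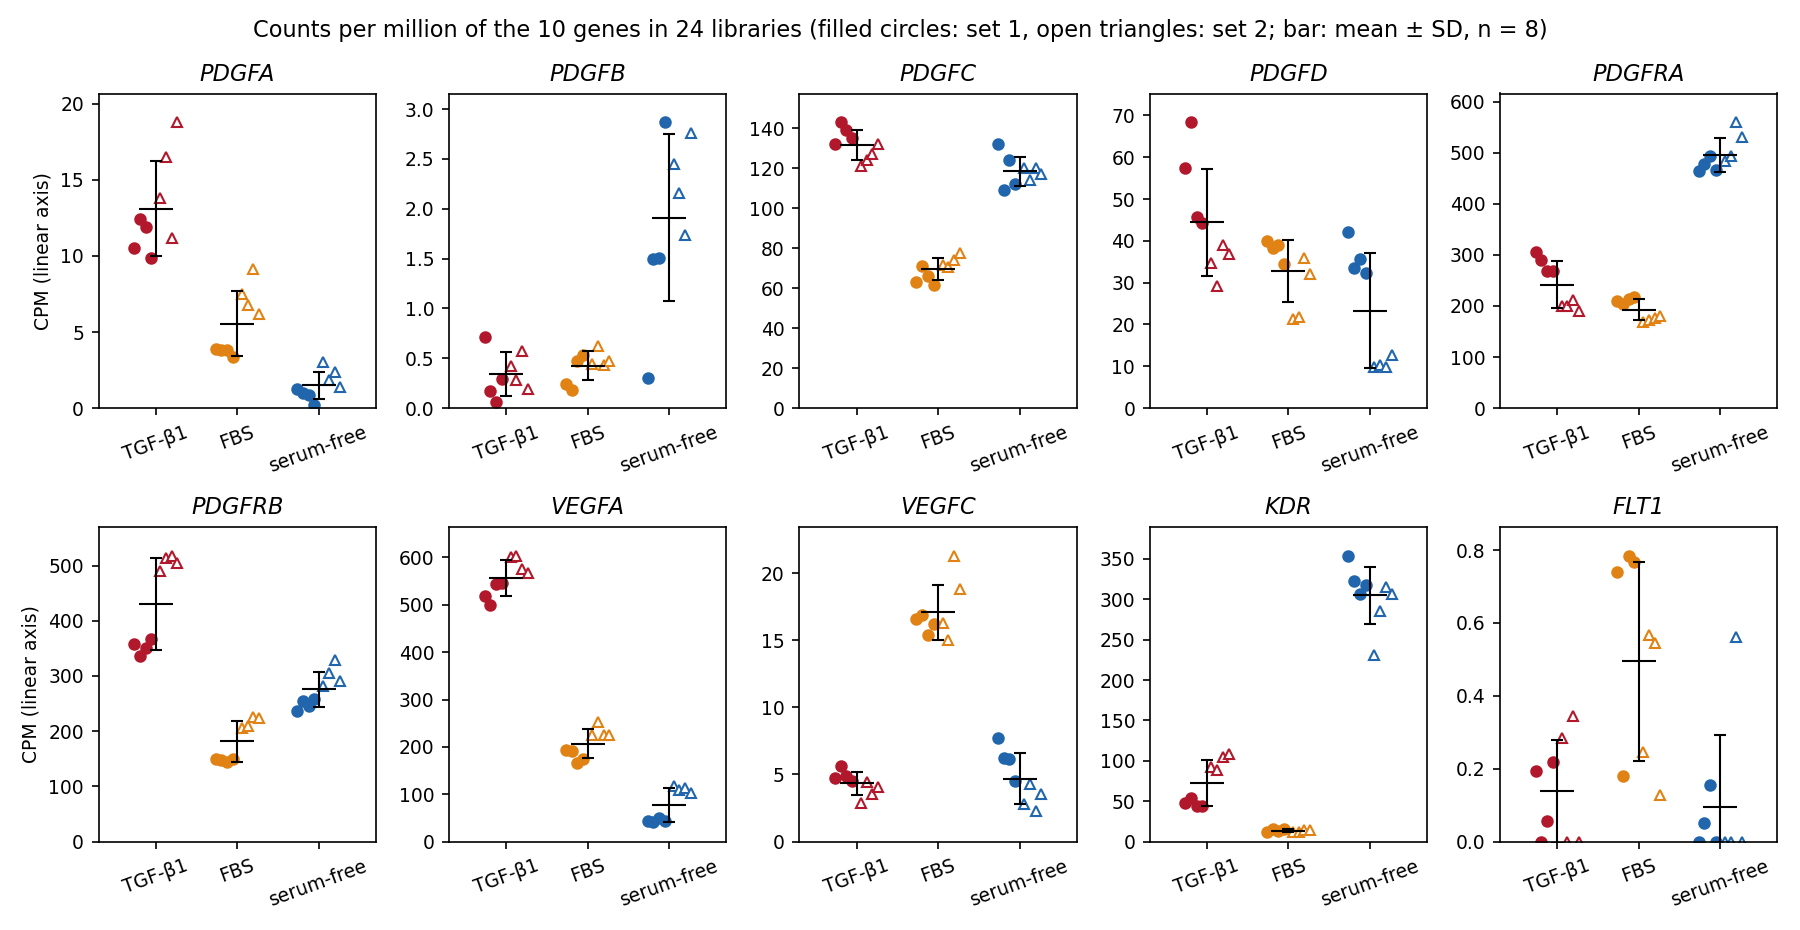
Level of each of the 10 genes in CPM (linear axis from 0, a scale per gene) in the 24 libraries, with TGF-β1 left, FBS in the middle and serum-free medium right; filled circles are set 1, open triangles set 2, and bars the mean ± SD of 8 libraries, cut at 0. KDR ran from 43.5 to 109 CPM with TGF-β1, from 11.5 to 15.5 CPM with FBS and from 231 to 354 CPM in serum-free medium, with no overlap.

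PDGFA, the A chain, was the PDGF ligand with the largest rise. Its level had a lowest, median and highest value of 9.85, 12.1 and 18.8 CPM with TGF-β1, 3.38, 5.02 and 9.12 CPM with FBS, and 0.183, 1.34 and 3.02 CPM in serum-free medium. The conditions did not overlap, and the order of TGF-β1 above FBS above serum-free medium held in every library. Against serum-free medium, the log2 fold change was 3.11 with TGF-β1 (SE 0.31, edgeR adjusted p = 2.18e-09), which is 8.65-fold. With FBS it was 1.87 (SE 0.31, edgeR adjusted p = 3.99e-06). The TGF-β1 level exceeded the FBS level by 1.24 on the log2 scale (SE 0.28, edgeR adjusted p = 0.000297). Serum-free libraries held only 3 to 64 reads of PDGFA each. In the coordinates of the table (genome build not given in the sources used), the gene is on unplaced scaffold chrUn1158 at 905 to 5680, and its model spans 396 bases of transcript. Per-length levels of PDGFA rest on that short model.

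PDGFB, the B chain and the partner of PDGFRB in pericyte recruitment, was scarce throughout and scarcest in the treated cells. It lay at 0.0574, 0.289 and 0.716 CPM with TGF-β1, at 0.179, 0.458 and 0.618 CPM with FBS, and at 0.306, 1.95 and 2.87 CPM in serum-free medium (lowest, median and highest). Serum-free replicate 1 was the low library at 0.306 CPM, inside the range of both treatments, and the other 7 lay above every treated library. The sums over 8 libraries were 42 reads with TGF-β1, 75 with FBS and 280 in serum-free medium. PDGFB fell by 2.48 on the log2 scale with TGF-β1 (SE 0.39, edgeR adjusted p = 5.18e-06) and by 2.15 with FBS (SE 0.37, edgeR adjusted p = 8.54e-06). It passed the count filter mainly through the serum-free libraries, where it was highest, and treated libraries held 1 to 14 reads each. Both falls are thus those of a gene kept for its serum-free level. The treatments were not told apart at this depth (-0.33, SE 0.42, edgeR adjusted p = 0.493). The table places PDGFB on chromosome 4 at 84238980 to 84254741.

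PDGFC, a latent ligand of the α receptor with a CUB domain, was lowest with FBS. Its levels were 121, 132 and 143 CPM with TGF-β1, 61.5, 70.8 and 77.5 CPM with FBS, and 109, 118 and 132 CPM in serum-free medium (lowest, median and highest). All FBS libraries lay under all others, while TGF-β1 and serum-free libraries overlapped. The gene fell by 0.77 with FBS against serum-free medium (log2, SE 0.06, edgeR adjusted p = 7.71e-12) and was 0.92 higher with TGF-β1 than with FBS (SE 0.06, edgeR adjusted p = 3.01e-13). The difference from FBS was 1.07 in set 1 and 0.78 in set 2 (set-by-treatment edgeR adjusted p = 0.0267). With TGF-β1 against serum-free medium the rise was 0.15 (SE 0.06, edgeR adjusted p = 0.0294), and set 2 alone gave 0.10 with an adjusted p = 0.196. That small call was also lost when serum-free replicate 2 (0.14, adjusted p = 0.0612), serum-free replicate 4 (0.14, 0.0552) or TGF-β1 replicate 2 (0.14, 0.0535) was left out. PDGFC lies on chromosome 15 at 7015705 to 7226237.

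PDGFD, the other ligand activated by proteolysis and mainly a ligand of the β receptor, differed between the sets of serum-free and of TGF-β1 libraries. Levels were 29.3, 41.6 and 68.4 CPM with TGF-β1, 21.4, 35.2 and 40 CPM with FBS, and 9.81, 22.6 and 42 CPM in serum-free medium (lowest, median and highest). Serum-free libraries split without overlap into 32.4 to 42.0 CPM in set 1 and 9.81 to 12.8 CPM in set 2. TGF-β1 libraries also split, into 44.3 to 68.4 CPM and 29.3 to 38.9 CPM. The sets overlapped with FBS, at 34.4 to 40 and 21.4 to 36 CPM. PDGFD rose with TGF-β1 by 0.93 on the log2 scale (SE 0.28, edgeR adjusted p = 0.0055), by 0.59 in set 1 and 1.72 in set 2 (set-by-treatment edgeR adjusted p = 0.000988). With FBS the difference from serum-free medium did not pass (0.50, SE 0.28, edgeR adjusted p = 0.105). It was 0.08 in set 1 (edgeR adjusted p = 0.528) and 1.39 in set 2 (1.89e-06), and these differed (set-by-treatment edgeR adjusted p = 9.89e-05). The replicate block, which pairs libraries of the same number, called the FBS change at 0.66 (edgeR adjusted p = 0.00217). It also called TGF-β1 above FBS at 0.42 (edgeR adjusted p = 0.0359), where the unblocked value was 0.44 (SE 0.28, edgeR adjusted p = 0.162). FBS replicates 5 and 6 were the lowest FBS libraries at 21.4 and 21.7 CPM, and without them FBS against serum-free medium was called at 0.67 (edgeR adjusted p = 0.0396). So was the same comparison without serum-free replicate 1 (0.68, edgeR adjusted p = 0.0291). PDGFD lies on chromosome 1 at 112364811 to 112640557, inside an opposite-strand model named GNG10. That model runs from 1624055 to 123554260, far beyond PDGFD, and held 25191, 26736 and 26907 reads in the 3 conditions. Whether counting used strand is not stated, so reads of overlapping rows cannot be told apart.

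As a share of the summed PDGF ligand FPKM, a per-length level on which genes can be set side by side, PDGFC made up 49.3% ± 3.99 with TGF-β1, 50.6% ± 3.65 with FBS and 79.1% ± 2.87 in serum-free medium. PDGFA made up 37.8% ± 6.73, 30.5% ± 8.04 and 7.8% ± 4.68 in the same order, on its short model. PDGFD held 12.7% ± 3.5, 18.6% ± 5.48 and 11.7% ± 6.5. PDGFC thus had the highest mean share in each condition, although PDGFA lay above it in TGF-β1 replicates 6 and 8 (42.1 against 40.7 and 47.9 against 43 FPKM). PDGFB stayed at 1.42% ± 0.659 or less of the sum.

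PDGFRA and PDGFRB, the receptors of these ligands, changed places in the order of levels. PDGFRA lay at 190, 240 and 305 CPM with TGF-β1, at 169, 192 and 218 CPM with FBS, and at 464, 488 and 560 CPM in serum-free medium (lowest, median and highest). Every treated library was below every serum-free library, and the treatments overlapped each other. PDGFRA fell by 1.04 on the log2 scale with TGF-β1 (SE 0.10, edgeR adjusted p = 5.56e-10), with -0.75 in set 1 and -1.36 in set 2 (set-by-treatment edgeR adjusted p = 1.51e-05). With FBS it fell by 1.36 (SE 0.10, edgeR adjusted p = 1.03e-12), with -1.17 in set 1 and -1.55 in set 2 (set-by-treatment edgeR adjusted p = 0.00176). The 0.32 by which TGF-β1 exceeded FBS (SE 0.10, edgeR adjusted p = 0.00391) turned to -0.08 (edgeR adjusted p = 0.454) when libraries were scaled by total count only. PDGFRA is on unplaced scaffold chrUn0056 at 203464 to 238277.

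PDGFRB had its highest level with TGF-β1 and its lowest with FBS. Its lowest, median and highest libraries held 337, 429 and 518 CPM with TGF-β1, 144, 178 and 226 CPM with FBS, and 237, 270 and 329 CPM in serum-free medium. No condition overlapped another. The rise with TGF-β1 was 0.64 on the log2 scale (SE 0.12, edgeR adjusted p = 6.28e-05), and with FBS the gene fell by 0.60 (SE 0.12, edgeR adjusted p = 8.88e-05). The change with FBS was -0.75 in set 1 and -0.47 in set 2 (set-by-treatment edgeR adjusted p = 0.0193). TGF-β1 stood above FBS by 1.24 (SE 0.12, edgeR adjusted p = 1.34e-09), with 1.25 in set 1 and 1.23 in set 2. The gene lies on chromosome 3 at 31893997 to 31929290.

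In FPKM, the ratio of PDGFRB to PDGFRA was 2.2 ± 0.801 with TGF-β1, 1.12 ± 0.332 with FBS and 0.644 ± 0.0474 in serum-free medium. It ran from 1.35 to 3.09 in TGF-β1 libraries, and from 0.579 to 0.719 in serum-free libraries. PDGFRB therefore led in every TGF-β1 library and PDGFRA in every serum-free library. FBS libraries divided by set, at 0.787 to 0.837 in set 1 and 1.41 to 1.49 in set 2, so neither receptor led in that condition as a whole. The ratio within TGF-β1 libraries also split, at 1.35 to 1.59 in set 1 and 2.84 to 3.09 in set 2. PDGFRB is also a gene of pericytes, and other pericyte and mural cell markers were measured beside it. All 9 were found, and their summed level was 64.7 to 137 CPM with TGF-β1, 73.8 to 132 CPM with FBS and 52.4 to 95.4 CPM in serum-free medium. Most of that was the proteoglycan gene CSPG4 (84.7 ± 27.9, 85.4 ± 18.9 and 49.7 ± 12 CPM), while RGS5, a defining pericyte gene, averaged 0.163, 0.129 and 0.107 CPM. Counting CSPG4, 5, 5 and 6 of the 9 averaged at least 1 CPM. NDUFA4L2 had means in sets 1 and 2 of 4.01 and 9.92 CPM with TGF-β1, 0.379 and 1.9 CPM with FBS, and 9.62 and 9.53 CPM in serum-free medium. For KCNJ8 these were 0.336 and 0.682, 1.86 and 10.2, and 4.47 and 5.28 CPM. Of the 7 markers tested, 2 rose and 2 fell with TGF-β1 (31.2% and 33.1% of all genes). With FBS, 3 rose and 2 fell (39.5% and 40.5% of all genes). The part of these markers in the PDGFRB result was not tested.

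**Figure D2:**
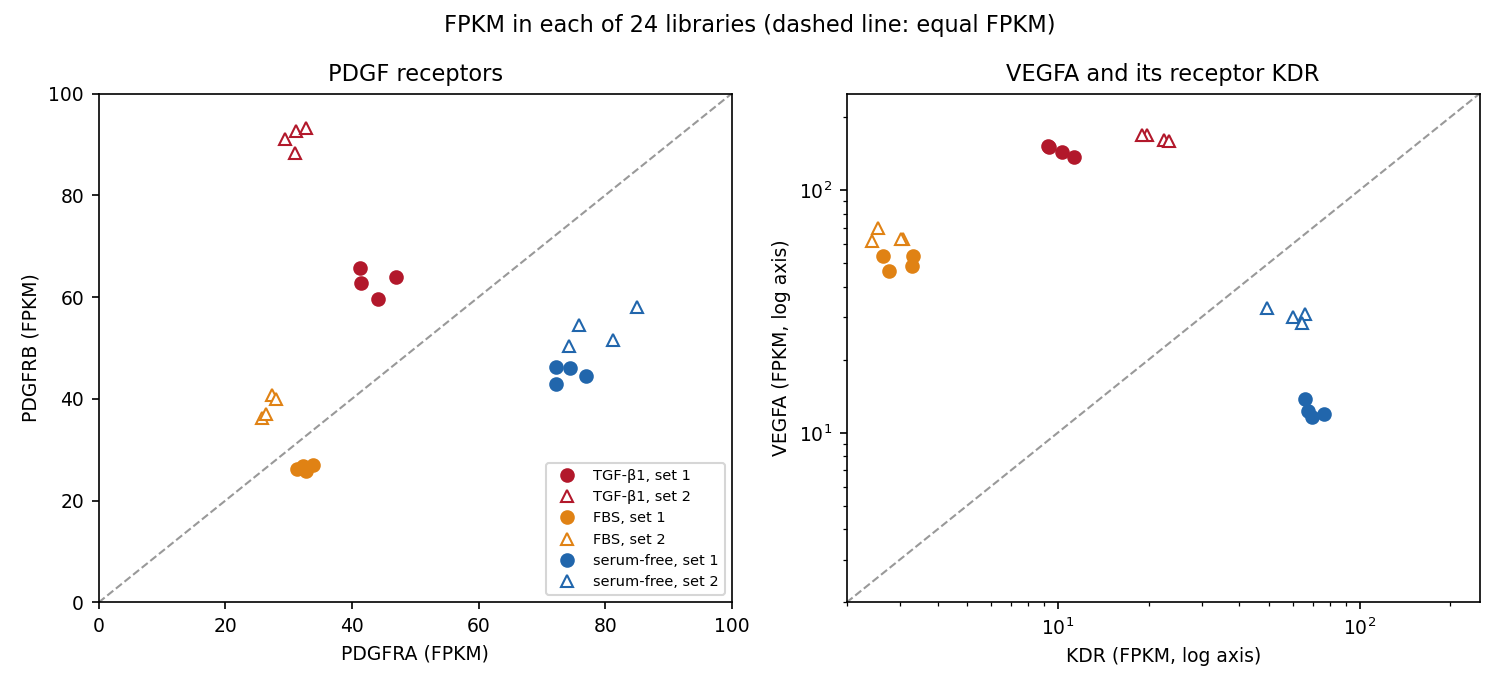
FPKM of PDGFRB against PDGFRA (left, linear axes) and of VEGFA against KDR (right, log axes) in each of the 24 libraries, coloured by condition, with filled circles for set 1 and open triangles for set 2; the dashed line marks equal FPKM. TGF-β1 libraries lie above the line in both panels and serum-free libraries below it, and FBS libraries straddle it for the PDGF receptors.

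VEGFA, the principal angiogenic ligand, rose with both treatments and most with TGF-β1. It lay at 499, 557 and 604 CPM with TGF-β1, at 166, 209 and 253 CPM with FBS, and at 41.3, 76 and 118 CPM in serum-free medium (lowest, median and highest). The conditions did not overlap, although each split by set, with set 2 higher. Serum-free libraries held 41.3 to 49.2 CPM in set 1 and 103 to 118 CPM in set 2. The sets held 499 to 547 and 568 to 604 CPM with TGF-β1, and 166 to 193 and 225 to 253 CPM with FBS. The log2 fold change with TGF-β1 was 2.84 (SE 0.21, edgeR adjusted p = 6.38e-12), a 7.18-fold rise. It was 3.57 in set 1 and 2.41 in set 2 (set-by-treatment edgeR adjusted p = 5.83e-09). With FBS the change was 1.42 (SE 0.20, edgeR adjusted p = 4.06e-07), made of 2.03 in set 1 and 1.08 in set 2 (set-by-treatment edgeR adjusted p = 5.62e-08). TGF-β1 exceeded FBS by 1.43 (SE 0.20, edgeR adjusted p = 4.42e-07), and here the sets gave 1.54 and 1.33. By FPKM VEGFA ranked 447 of the 13308 genes with TGF-β1, 1379 with FBS and 3082 in serum-free medium. The gene is on chromosome 12 at 33199538 to 33214875.

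VEGFC, the lymphangiogenic ligand, rose with FBS and gave no call with TGF-β1. Values were 2.9, 4.48 and 5.66 CPM with TGF-β1, 15, 16.4 and 21.3 CPM with FBS, and 2.25, 4.42 and 7.74 CPM in serum-free medium (lowest, median and highest). All FBS libraries stood above all others, and the TGF-β1 range lay within the serum-free range. The rise with FBS was 1.86 on the log2 scale (SE 0.19, edgeR adjusted p = 1.17e-09), with 1.40 in set 1 and 2.48 in set 2 (set-by-treatment edgeR adjusted p = 0.002). TGF-β1 gave -0.11 against serum-free medium (SE 0.19, edgeR adjusted p = 0.632), with -0.31 in set 1 and 0.22 in set 2, and its log2 fold change against FBS was -1.97 (SE 0.19, edgeR adjusted p = 6.83e-10). In FPKM, VEGFA made up 98.7% ± 0.333 of the sum of both ligands with TGF-β1, 87.5% ± 1.64 with FBS and 88.1% ± 8.1 in serum-free medium. VEGFC lies on chromosome 2 at 54161431 to 54278581.

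KDR, the main signalling receptor for VEGF-A, had the largest fold change of the 9 genes tested, a fall with FBS. Levels were 43.5, 70.9 and 109 CPM with TGF-β1, 11.5, 13.6 and 15.5 CPM with FBS, and 231, 311 and 354 CPM in serum-free medium (lowest, median and highest). No condition overlapped another, and serum-free KDR ranked 879 of 13308 genes by FPKM, against 4315 with TGF-β1 and 9075 with FBS. KDR fell by 4.49 on the log2 scale with FBS (SE 0.19, edgeR adjusted p = 2.58e-17), which is 22.5-fold, and the sets gave -4.52 and -4.44. With TGF-β1 the log2 fold change was -2.06 (SE 0.17, edgeR adjusted p = 7.29e-11), a 4.18-fold fall. It was larger in set 1 (-2.78) than in set 2 (-1.53), with a set-by-treatment edgeR adjusted p = 6.87e-07. TGF-β1 libraries accordingly held 43.5 to 53.6 CPM in set 1 and 88.3 to 109 CPM in set 2. TGF-β1 stood above FBS by 2.43 (SE 0.18, edgeR adjusted p = 2.6e-12), by 1.75 in set 1 and 2.91 in set 2 (set-by-treatment edgeR adjusted p = 3.2e-06). KDR lies on chromosome 15 at 93608021 to 93652418. An opposite-strand row inside it held 3, 2 and 46 reads in the 3 conditions, beside 9080, 2390 and 45222 reads of KDR.

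The FPKM ratio of VEGFA to KDR was 11.3 ± 3.93 with TGF-β1, 20.3 ± 4.49 with FBS and 0.349 ± 0.194 in serum-free medium. It ran from 6.83 to 16.4, from 14.7 to 27.5 and from 0.158 to 0.667 in those conditions. The ratio also divided by set in each condition. Sets 1 and 2 gave 12.2 to 16.4 and 6.83 to 8.92 with TGF-β1, and 14.7 to 20.4 and 20.5 to 27.5 with FBS. In serum-free medium they gave 0.158 to 0.21 and 0.439 to 0.667. TGF-β1 and FBS libraries thus overlapped in set 1 and lay apart in set 2. Ligand transcript exceeded receptor transcript in all 16 treated libraries and in no serum-free library.

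FLT1, the decoy-like VEGF-A receptor, was near the limit of detection. With TGF-β1 its lowest, median and highest values were 0, 0.126 and 0.346 CPM, with FBS 0.128, 0.556 and 0.785 CPM, and in serum-free medium 0, 0 and 0.562 CPM. The sums were 17 reads with TGF-β1, 88 with FBS and 14 in serum-free medium, and 10 of those 14 came from replicate 7. A count of 0 was found in 3 TGF-β1 and 5 serum-free libraries, which allows up to 0.168 to 0.215 CPM with TGF-β1 and 0.141 to 0.183 CPM in serum-free medium (3 counts per library, counting error only). FBS exceeded serum-free medium 5.15-fold in mean CPM (two-sided exact permutation p = 0.00777, 0.0117 adjusted over 3 comparisons). Without serum-free replicate 7 that ratio was 16.8 (two-sided exact permutation p = 0.0014, adjusted p = 0.0042). TGF-β1 held 0.278 of the FBS mean (two-sided exact permutation p = 0.00746, adjusted p = 0.0117). TGF-β1 and serum-free medium were not told apart (two-sided exact permutation p = 0.658, adjusted p = 0.658), nor without replicate 7 (0.0828). Set means in FBS against serum-free libraries were 0.618 and 0.0516 CPM in set 1, and 0.372 and 0.141 CPM in set 2. Within a set, 4 against 4 libraries cannot go below an exact permutation p of 0.0286, the value that FBS against serum-free medium had in set 1. FLT1 is on unplaced scaffold chrUn0037 at 1361688 to 1559459.

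**Figure D3:**
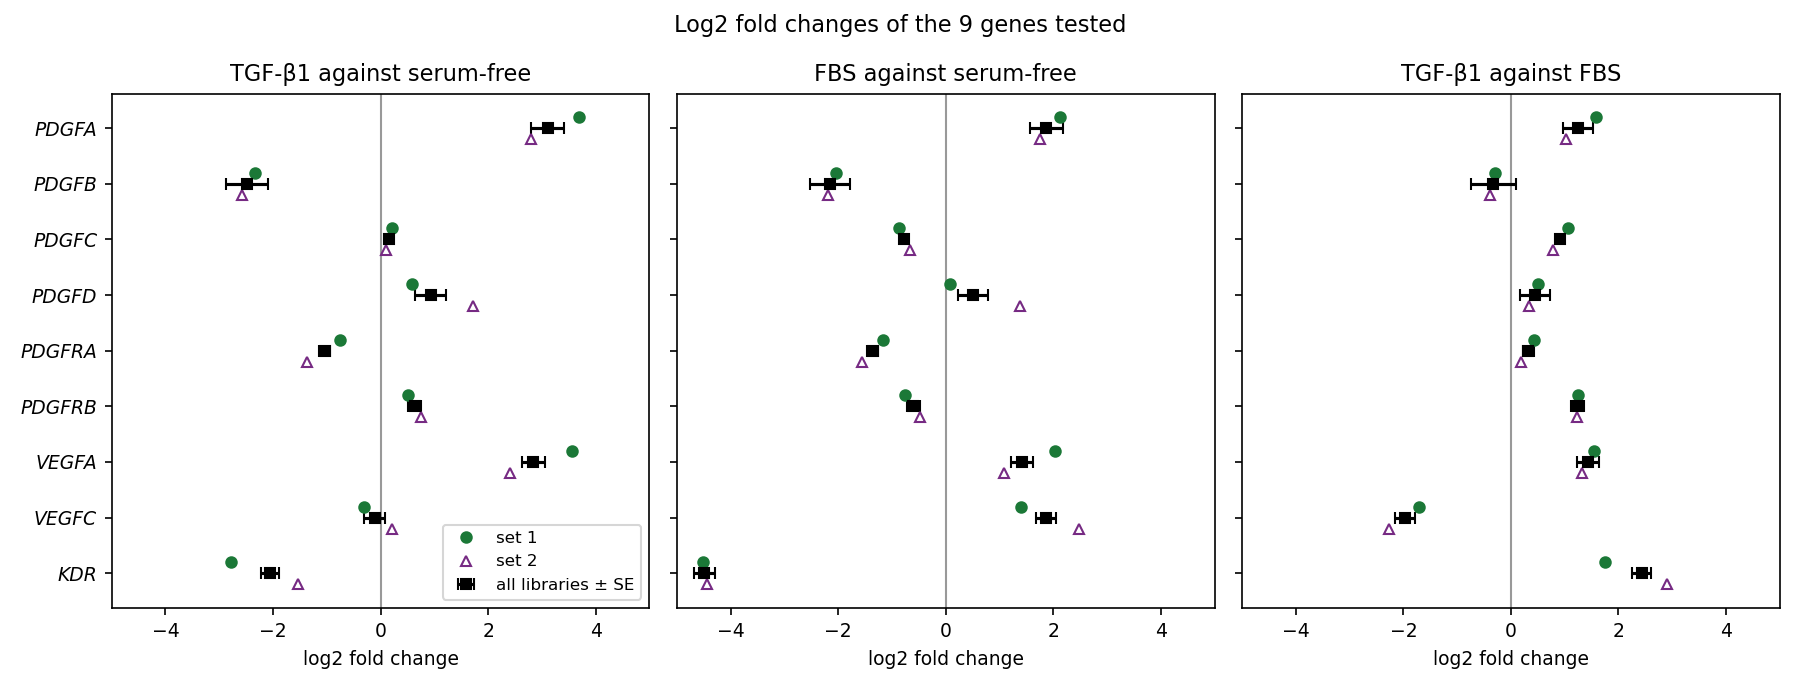
Log2 fold changes of the 9 genes tested in TGF-β1 against serum-free, FBS against serum-free and TGF-β1 against FBS libraries; black squares with bars are the value over all libraries ± SE, filled circles set 1 and open triangles set 2. The sets lie apart most for PDGFD in FBS against serum-free libraries (set 2 minus set 1 of 1.31) and KDR in TGF-β1 against serum-free libraries (1.25).

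KDR is a defining gene of vascular endothelium, so 13 other endothelial markers found in the table were read beside it. Their summed level was 204 to 316 CPM with TGF-β1, 65.8 to 79.9 CPM with FBS and 203 to 255 CPM in serum-free medium. Nearly all of it was ERG, an ETS factor of endothelium (236 ± 48.4, 59.9 ± 8.43 and 195 ± 21.4 CPM). EMCN, the sialomucin endomucin, averaged 14.4 ± 2.5, 10.1 ± 4.35 and 16.3 ± 2.97 CPM, and CDH5, vascular cadherin, 6.09 ± 1.86, 1.93 ± 0.561 and 13.1 ± 2.18 CPM. The other defining genes, PECAM1, TEK, TIE1, CLDN5, VWF, ESAM, MMRN2, PLVAP, ROBO4 and ECSCR, each averaged under 1 CPM in every condition, and PLVAP had 0 counts with TGF-β1 and in serum-free medium. With 4 markers tested, 1 rose and 2 fell with TGF-β1 (31.2% and 33.1% of all genes), and 4 fell with FBS (40.5%). ERG rose by 0.27 with TGF-β1 (edgeR adjusted p = 0.0338), where KDR fell by 2.06. The ERG change differed between the sets (set-by-treatment edgeR adjusted p = 0.0293), with means of 279 CPM with TGF-β1 against 207 CPM in serum-free medium in set 1, and 192 against 183 CPM in set 2. In set 1 alone, 2 of 4 endothelial markers were called higher with TGF-β1 and 1 lower (median 0.25). None was called higher with TGF-β1 in set 2 alone or with total-count scaling. Over all libraries, 4 of 4 were higher with TGF-β1 than with FBS (median 1.81), where 36.9% of all genes were. CDH5 fell by 1.11 with TGF-β1 and by 2.76 with FBS (edgeR adjusted p = 7.19e-06 and 7.35e-13). In bulk RNA, fewer cells of a type and less RNA per cell cannot be told apart.

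**Figure D4:**
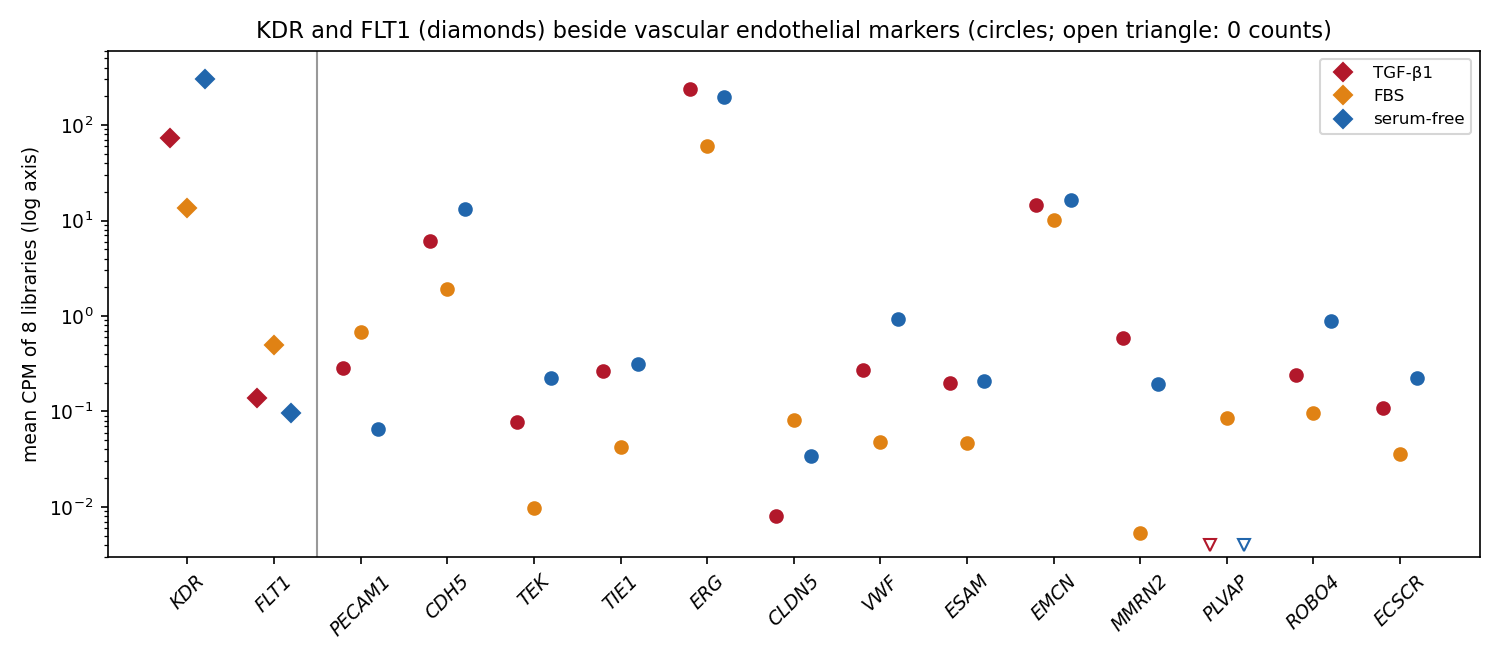
Mean CPM of 8 libraries (log axis) of KDR and FLT1 (diamonds) and of the 13 vascular endothelial markers (circles), with TGF-β1, FBS and serum-free medium from left to right at each gene; an open triangle at the foot marks 0 counts. KDR at 305 CPM in serum-free medium and ERG at 195 CPM stand far above PECAM1, TEK and CLDN5, each under 1 CPM.

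Other cell types were also looked for. Lymphatic endothelial markers summed to at most 2.47 CPM in any library. Corneal epithelial markers summed to 0.716 to 2.77 CPM with TGF-β1, 4.11 to 6.06 CPM with FBS and 0.281 to 1.27 CPM in serum-free medium. Most of the FBS sum was TP63 (means of 5.35 CPM in set 1 and 3.62 CPM in set 2), then KRT15 (0.241 and 0.708 CPM). KRT3, KRT5, CDH1, EPCAM and PAX6 had FBS set means of 0.0415 CPM or less, and the corneal keratin KRT12 had 0 counts throughout. Leukocyte markers summed to 6.39 to 9.91, 12.1 to 26.7 and 2.47 to 5.34 CPM, most of it the lysosomal gene CD68 (6.63 ± 0.993, 18.3 ± 5.98 and 2.35 ± 0.873 CPM). The medians of the epithelial and leukocyte sums were highest with FBS, where VEGFC and FLT1 were highest too, and their part in those results was not tested.

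The set-by-treatment term was called in 4 of the 9 genes for TGF-β1 against serum-free medium (10.3% of all genes), in 5 for FBS against serum-free medium (22.4%) and in 2 for TGF-β1 against FBS (23.9%). The sizes therefore depend on the set for many of these genes. Of the 110 list genes tested, the term was called in 25, 48 and 48 in the same comparisons. Within each set alone, the calls of PDGFA, PDGFB, PDGFRA, PDGFRB, VEGFA and KDR against serum-free medium kept their direction and passed.

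By FPKM, the order with TGF-β1 was VEGFA (155 ± 11.2), PDGFRB (77.2 ± 15.3), PDGFC (42.8 ± 2.17), PDGFRA (37.3 ± 6.89), PDGFA (33.2 ± 8.03), KDR (15.6 ± 6.09), PDGFD (11 ± 3.11) and VEGFC (2.06 ± 0.394). PDGFC, PDGFRA and PDGFA had overlapping ranges in that order, as had KDR and PDGFD. With FBS it was VEGFA (57.4 ± 8.16), PDGFRB (32.5 ± 6.58), PDGFRA (29.7 ± 3.19), PDGFC (22.5 ± 1.78), PDGFA (14 ± 5.37), PDGFD (8.15 ± 1.88), VEGFC (8.08 ± 1.01) and KDR (2.88 ± 0.343). There the ranges of PDGFRB and PDGFRA, of PDGFC and PDGFA, and of PDGFA, PDGFD and VEGFC overlapped. In serum-free medium PDGFRA (76.5 ± 4.49) came first, then KDR (64.9 ± 7.78), PDGFRB (49.3 ± 5.24), PDGFC (38.4 ± 2.5), VEGFA (21.5 ± 9.77), PDGFD (5.8 ± 3.48), PDGFA (3.77 ± 2.23) and VEGFC (2.23 ± 0.913). PDGFRA and KDR overlapped at 72.2 to 85 against 49.2 to 76 FPKM, KDR and PDGFRB also overlapped, PDGFRB and PDGFC did so at their edges (42.9 and 43.2 FPKM), and so did PDGFD, PDGFA and VEGFC. PDGFB and FLT1 closed the order in each condition, at 0.669 FPKM or less. VEGFA thus led with either treatment, and receptors led in serum-free medium.

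Among other members of these families, the co-receptor genes NRP1 and NRP2 rose with both treatments. Neuropilins bind VEGF and class 3 semaphorins. NRP2 rose with TGF-β1 by 2.72 and with FBS by 1.44 (edgeR adjusted p = 2.36e-16 and 1.15e-11), at 1113 ± 111 CPM with TGF-β1, 458 ± 59.3 CPM with FBS and 169 ± 37 CPM in serum-free medium. NRP1 rose by 0.49 and 0.91 (edgeR adjusted p = 0.00411 and 1.86e-06), and the set-by-treatment term passed in both (edgeR adjusted p = 1.41e-05 and 0.000955). Its means were 350 CPM with TGF-β1, 441 CPM with FBS and 200 CPM in serum-free medium in set 1, and 206, 308 and 197 CPM in set 2. The FPKM ratio of NRP2 to NRP1 was 2.22 ± 0.794 with TGF-β1, 0.63 ± 0.0567 with FBS and 0.431 ± 0.0926 in serum-free medium. PDGFRL, a secreted protein related to the PDGF receptors, averaged 126 ± 12.5, 9.29 ± 3.08 and 372 ± 38.2 CPM, and fell by 1.56 with TGF-β1 and by 5.33 with FBS (edgeR adjusted p = 3.96e-10 and 6.69e-20). VEGFD, a close relative of VEGFC, fell (log2 fold changes -2.55 and -3.45), with levels of 1.87 ± 0.71 and 1.01 ± 0.428 CPM in treated and 11 ± 1.39 CPM in serum-free cells. PGF, a ligand of FLT1, averaged 1.54 ± 0.636, 1.99 ± 0.742 and 0.371 ± 0.331 CPM, and rose by 2.00 and 2.38 against serum-free medium. FLT4, the VEGF-C receptor gene, averaged 0.542 CPM or less and was not tested. Of the 5 tested, 3 rose and 2 fell with TGF-β1 (median 0.49, but 2 and 2, median 0.07, in set 2 alone). With FBS, 3 rose and 2 fell (median 0.91). The shares of all genes were 31.2% and 33.1% with TGF-β1, and 39.5% and 40.5% with FBS.

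Genes that process or capture the ligands were called higher in 10 of 14 cases and lower in 1 with TGF-β1 (31.2% and 33.1% of all genes). Their median was 1.20, against -0.03 over all genes. With FBS, 6 rose and 8 fell (39.5% and 40.5% of all genes), and the median was -0.44, against -0.04. The FBS median turned to 0.56 in set 1 alone, with 7 higher and 6 lower, and total-count scaling gave 6 and 6. CTGF and THBS1, matrix proteins that bind VEGF-A, and ADAMTS1, a metalloprotease that binds it, were among the higher. ADAMTS1 averaged 304 ± 60.5 CPM with TGF-β1, 359 ± 122 CPM with FBS and 11.3 ± 3.84 CPM in serum-free medium. CTGF averaged 4632 ± 996, 1725 ± 657 and 135 ± 61.2 CPM (5.10 with TGF-β1 and 3.67 with FBS on the log2 scale). THBS1 rose by 2.59 and 1.60, and more in set 1 (13684, 7285 and 1476 CPM with TGF-β1, FBS and serum-free medium) than in set 2 (6151, 2674 and 1814 CPM; set-by-treatment edgeR adjusted p = 9.39e-08 and 1.3e-09). SPARC, which binds PDGF B chains and VEGF-A, rose by 0.36 with TGF-β1 (edgeR adjusted p = 0.0039) and fell by 2.97 with FBS (edgeR adjusted p = 1.64e-18). It was among the most abundant transcripts of the list, at 22668 ± 1659, 2252 ± 433 and 17683 ± 1593 CPM. LRP1, an endocytic receptor that associates with PDGFRB, averaged 7755 ± 545, 1064 ± 274 and 4967 ± 1347 CPM and was 2.87 higher with TGF-β1 than with FBS.

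The proteases of the latent ligands moved unequally. PLAT, tissue plasminogen activator and an activator of PDGF-C, fell by 1.50 with TGF-β1 and by 1.87 with FBS, at 64.1 ± 15.1 and 49.5 ± 6.34 CPM against 181 ± 14.5 CPM in serum-free medium. PLAU, urokinase and an activator of PDGF-D, rose by 2.00 with FBS to 3.62 ± 1.01 CPM, and with TGF-β1 the value was -0.36 (edgeR adjusted p = 0.359). FURIN, a convertase that cleaves PDGF and VEGF-C precursors, rose by 0.69 with TGF-β1 and fell by 0.40 with FBS. PCSK5, a related convertase, averaged 43 ± 3.43, 3.67 ± 0.812 and 36.5 ± 5.19 CPM, and fell by 3.31 with FBS. With TGF-β1 its difference was 0.24 (edgeR adjusted p = 0.0626). PCSK6 rose by 2.47 and 3.75, to 6.26 ± 1.39 CPM with TGF-β1 and 15.3 ± 1.48 CPM with FBS.

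**Figure D5:**
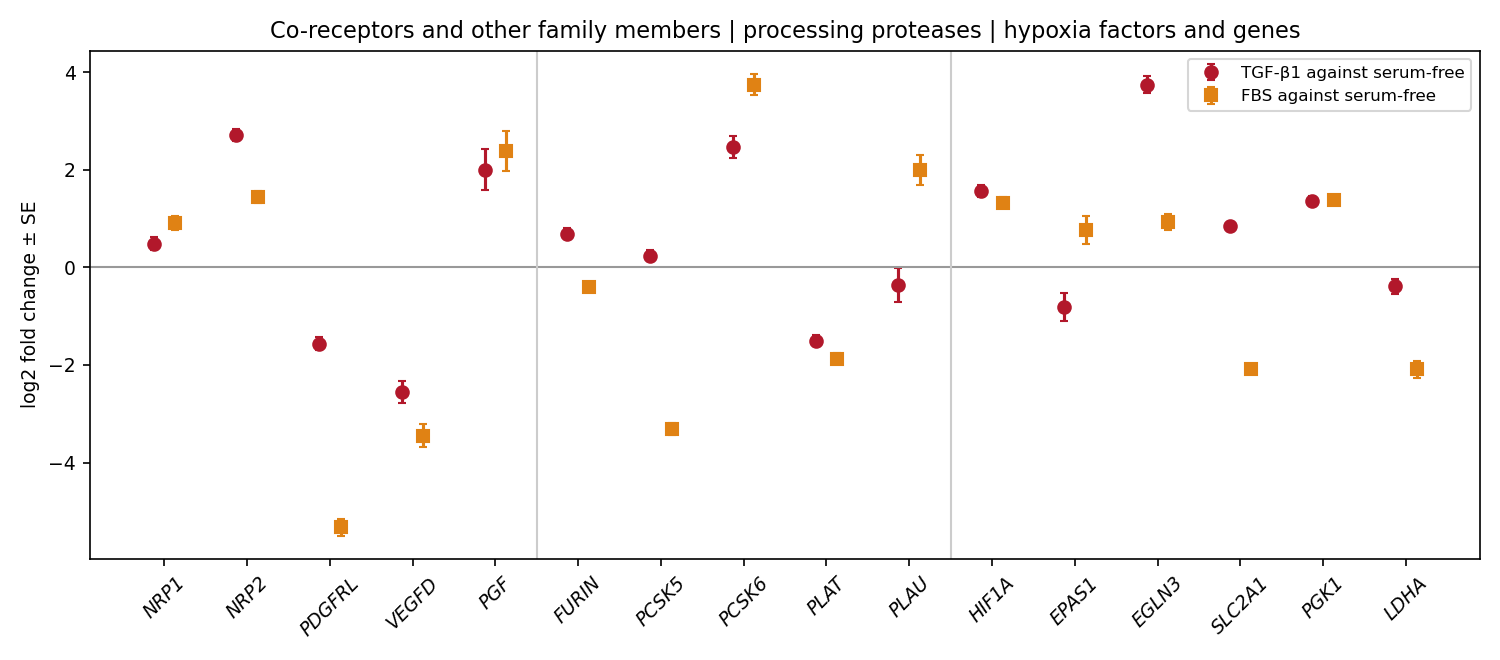
Log2 fold changes ± SE against serum-free medium with TGF-β1 (circles, left of each pair) and FBS (squares) for co-receptors and other family genes, proteases that act on the ligands or their precursors, and hypoxia genes. PDGFRL (-5.33), PCSK5 (-3.31) and SLC2A1 (-2.09) lie far below 0 with FBS, and EGLN3 (3.75) far above it with TGF-β1.

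Adaptors and enzymes downstream of the receptors changed in both directions. Of 23 tested, 10 rose and 5 fell with TGF-β1 (median 0.17), where 31.2% and 33.1% of all genes did. With FBS, 11 rose and 8 fell (median 0.08), where 39.5% and 40.5% of all genes did. With TGF-β1 against FBS, 7 were higher and 5 lower (median 0.06), where 36.9% and 36.4% of all genes were. The last split became 4 higher and 15 lower (median -0.34) when libraries were scaled by total count only. PTPRJ, a phosphatase that acts on both receptor families, rose by 1.39 and 1.95, SHB, an adaptor of VEGFR2, by 1.22 and 1.16, and RASA1, a Ras-GTPase activator, by 1.07 and 1.13 with TGF-β1 and with FBS. GAB1, a docking protein, fell (-0.59 and -2.33), as did PIK3R1, a regulatory subunit of PI3-kinase (-0.51 and -1.51). CRK, an adaptor, averaged 160 ± 11.6, 153 ± 18 and 151 ± 9.52 CPM and was called in no comparison. PLCG1, phospholipase C γ, was 1.23 higher with TGF-β1 than with FBS, and PIK3CA, a catalytic subunit of PI3-kinase, 1.08 higher.

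VEGFA is a classical target of hypoxia-inducible factors, and 17 factors and response genes of hypoxia were tested. With TGF-β1, 9 rose and 4 fell (median 0.36), where 31.2% and 33.1% of all genes did. With FBS, 6 rose and 10 fell (median -0.45), where 39.5% and 40.5% of all genes did. With total-count scaling the splits were 7 and 6 with TGF-β1 (median 0.21) and 7 and 7 with FBS (median -0.20). HIF1A, the α subunit, averaged 589 ± 89.7 CPM with TGF-β1, 499 ± 108 CPM with FBS and 199 ± 29 CPM in serum-free medium, and rose by 1.57 and 1.33 (edgeR adjusted p = 1.72e-11 and 1.4e-10). EGLN3, a prolyl hydroxylase, rose by 3.75 and 0.93, and PGK1, a glycolytic kinase, by 1.37 and 1.38. The glucose transporter gene SLC2A1 rose by 0.85 with TGF-β1 and fell by 2.09 with FBS, while LDHA, lactate dehydrogenase, fell in both (-0.39 and -2.09). EPAS1, the α subunit HIF-2α, depended on the set: TGF-β1 libraries held 60.7 to 75.1 CPM in set 1 and 203 to 228 CPM in set 2, against 275 to 316 and 174 to 226 CPM in serum-free medium. The relation of VEGFA to these genes was not tested.

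Anti-angiogenic genes rose in 5 and fell in 7 of 12 cases with TGF-β1 (median -0.71), where 31.2% and 33.1% of all genes did. THBS1, THBS2 and ADAMTS1, each higher with TGF-β1, are also in the list of genes that process or capture the ligands. The counts of these lists are therefore not separate observations. Anti-angiogenic genes rose in 3 and fell in 9 cases with FBS (median -0.72), where 39.5% and 40.5% of all genes did. SEMA3F and SEMA3B, semaphorins that bind neuropilins, were lower in both treatments. SEMA3F averaged 23.9 ± 3.49 CPM with TGF-β1, 27.6 ± 5.62 CPM with FBS and 191 ± 17.2 CPM in serum-free medium. SERPINF1, pigment epithelium-derived factor, rose by 1.59 with TGF-β1 and fell by 1.20 with FBS. THBS2 averaged 3439 ± 411, 653 ± 44 and 1061 ± 206 CPM. SPRY1, a feedback inhibitor of receptor tyrosine kinases, fell (-1.53 with TGF-β1 and -3.18 with FBS). Between the treatments 5 of the 12 were higher with TGF-β1 and 3 lower (median 0.18), where 36.9% and 36.4% of all genes were. Total-count scaling made this 4 and 6 (median -0.22).

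Of 11 other angiogenic factors, 1 rose and 6 fell with TGF-β1 (median -0.67), where 31.2% and 33.1% of all genes did. With FBS, 4 rose and 6 fell (median -0.92), where 39.5% and 40.5% of all genes did. The FBS split was 3 and 6 in set 1 alone (median -1.30), and 4 and 4 in set 2 alone (median -0.05). CXCL8, interleukin-8, averaged 25.8 ± 14.1 CPM with TGF-β1, 253 ± 73.2 CPM with FBS and 41.6 ± 16 CPM in serum-free medium. It rose by 2.60 with FBS and fell by 0.69 with TGF-β1 (edgeR adjusted p = 2.01e-08 and 0.0453). APLN, apelin, fell by 3.05 with TGF-β1 and rose by 0.52 with FBS, and ANG, angiogenin, fell (-1.22 and -3.49). FGF1, acidic fibroblast growth factor, averaged 7.5 ± 1.55, 0.301 ± 0.169 and 7.04 ± 1.53 CPM. ANGPTL4, a secreted lipase inhibitor with vascular effects, fell by 7.06 with FBS (edgeR adjusted p = 1.59e-06). Its set means were 25.3 and 800 CPM with TGF-β1, 3.14 and 5.33 CPM with FBS, and 42.4 and 1081 CPM in serum-free medium.

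The patterns of the 9 genes over the 24 libraries were set beside those of 10080 genes by Pearson's correlation of log2 CPM, as a description in which condition and set are shared by all points. VEGFA was most like BGN, the proteoglycan biglycan (r = 0.996), ADIPOR1 and ECM1 (0.985 each), and PDGFA was most like BGN (0.959), F2R (0.952) and VEGFA itself (0.948). BGN averaged 5752, 1368 and 367 CPM in the TGF-β1, FBS and serum-free conditions. VEGFC was most like KIAA0101 (0.985), KIF11 (0.981) and PBK (0.976), genes of dividing cells, and KIF11 averaged 2.84, 173 and 4.25 CPM. KDR was most like SLC7A8, an amino acid transporter gene (0.992), PAPSS2, which makes the sulfate donor (0.990), and FBXO21 (0.989). For PDGFRA these were DAAM2 (0.989), STK35 (0.984) and PRKAG3 (0.983), and for PDGFRB the protease gene CTSB (0.978), TSC22D1 (0.972) and CERCAM (0.970). Among the genes most like PDGFC was GNAS (0.983). PDGFD went with PCDH7 (0.969), OXCT1 (0.954) and HMGCS1 (0.938). The values of PDGFB were lower, at 0.918 for TTYH2, 0.895 for EHMT2 and 0.892 for TRIP10.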

How the data were processed

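The authors deposited 1 integer read count per gene and library and a matching FPKM table, per the file headers. Libraries were made by a sequencing company from total RNA, per the labels' protocols. Which aligner, counting program, genome build and annotation served is not given in the sources used. Deposited FPKM values equal counts over gene length and over a library size that the authors scaled. Counts were used for all tests, FPKM for levels between genes.

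In R 4.3.3, edgeR 4.0.16 kept 13308 genes by filterByExpr, scaled libraries by TMM and fitted all 24 libraries with 1 coefficient per condition. P-values of quasi-likelihood F-tests were Benjamini-Hochberg adjusted over all genes tested, and the standard error is the absolute log2 fold change over the square root of F. CPM uses the TMM sizes. The edgeR step was tested on simulated data. FLT1 was below the filter and had an exact permutation test over 12870 splits. Set-by-treatment terms tested the difference between sets of library numbers. Alternatives were DESeq2 1.42.0, limma 3.58.1 on log2 FPKM plus 1 or 0.1, other filters, scalings and designs, each set alone, and each library left out.

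Replicate numbers come from the labels. Residuals of same-numbered libraries correlated at 0.177 to 0.362 (TGF-β1 and serum-free), 0.115 to 0.429 (FBS and serum-free) and 0.103 to 0.332 (TGF-β1 and FBS). Pairs of different numbers ran from -0.381 to 0.441, -0.381 to 0.414 and -0.362 to 0.335 in that order. Only condition means were taken out, so these values also hold the set difference and do not show pairing by number. The number served as a block in an alternative design only. The closest libraries of a condition had a squared difference of 2.80 times the counting variance per gene, and no library duplicated another.

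The members and the 13 lists (147 genes, 140 found) were chosen with earlier results of these data known. VEGFB, A2M, AKT1, CXCL14, EGFL7, KRT14 and PTGDS are not analysed here. VEGFD was found under the older symbol FIGF, and 764 of 8020 bare gene numbers were given a symbol from RefSeq. Named list genes are up to 3 called genes per comparison with the largest change and at least 5 CPM in the higher condition, and up to 1 uncalled gene of the highest level, some left out for room. Of the 3 genes most like PDGFC, 1 is reported here. NRP1, PGF, FURIN, PLAT, PLAU and EPAS1, and the marker genes under 1 CPM, were added for their roles with values known.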

Additional observations from a re-analysis of the deposited data

Results flagged for a closer look

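The effect of treatment differed between library sets 1 and 2 in 11 of the 27 gene-by-comparison cases tested (edgeR set-by-treatment term, adjusted over all genes). For TGF-β1 against serum-free medium, the log2 fold change in set 2 minus that in set 1 was 1.13 for PDGFD, -0.62 for PDGFRA, -1.16 for VEGFA and 1.25 for KDR. For FBS against serum-free medium it was 1.31 for PDGFD, -0.39 for PDGFRA, 0.27 for PDGFRB, -0.96 for VEGFA and 1.07 for VEGFC. For TGF-β1 against FBS it was -0.29 for PDGFC and 1.17 for KDR. What the sets share is not in the labels, and the cause was not tested.

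FLT1 in serum-free replicate 7 was 0.562 CPM (10 reads), far from the next library at 0.156 CPM. The gap was 0.722 of the range, above Dixon's 95% critical value for 8 libraries. It was 1 of 30 gene-by-condition groups examined, each at both ends. The critical value assumes normally distributed values, and 5 of these 8 libraries held 0 reads, so no rate expected by chance is given.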

How the results depend on the processing

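Over 38 alternative settings, 24 of them leaving out 1 library, 1004 of 1022 recomputed fold changes of the 9 genes kept their direction, or lack of a call, and their side of the threshold. Of the rest, 12 gained a call, 5 lost one and 1 reversed: PDGFRA in TGF-β1 against FBS libraries, -0.08 with total library size only. That scaling also cut the genes called higher with TGF-β1 than with FBS to 3131, against 4917. It moved the median of all genes to -0.173, 0.214 and -0.388 in the 3 comparisons, and with it PDGFC in TGF-β1 against serum-free medium was 0.01 (edgeR adjusted p = 0.906). The gains were all of PDGFD. In FBS against serum-free medium they came with total library size (0.78), the set as a covariate (0.67), the replicate block (0.66), set 2 alone (1.39), limma on log2 FPKM plus 1 (0.58) or plus 0.1 (0.70), and 2 ways of leaving out libraries (0.67 and 0.68). In TGF-β1 against FBS they came with only those conditions (0.43), the covariate (0.41), the block (0.42) and set 1 alone (0.51). The number of the 9 genes called was 7 to 8, 7 to 9 and 6 to 8 in the 3 comparisons, and 8, 9 and 7 without FBS replicates 5 and 6 (chosen after seeing the data). The FLT1 calls held without any single library and without FBS replicates 5 and 6, with FBS against serum-free ratios of 4.51 to 16.8, and not within a set (12 and 2.65). FLT1 entered the fit with no filter (2.36 for FBS against serum-free medium, edgeR adjusted p = 0.0105), and PDGFB left it under a stricter filter. The replicate block called 9385, 11104 and 10311 genes, against 8563, 10643 and 9757 without it, and changed no other call of these genes. Added to a pseudocount of 1, low FPKM shrank the PDGFB falls to -0.56 and -0.52. Depth limits PDGFB, FLT1 and serum-free PDGFA.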
